A study of Homo sapiens with 8 samples.

Results

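The genes followed encode nearly every enzyme that turns glucose into lactate, 10 in all: HK2, GPI, PFKP, ALDOA, TPI1, GAPDH, PGK1, ENO1, PKM and LDHA. Members were found through the RefSeq identifier that the array gives each non-control probe, with PKM also listed under its older name PKM2. The 10 genes had 17 of the 41000 probes on the array and 35 of the 43376 non-control spots, and 15 of the 17 probes passed the filters on detection and on the difference between dyes, among 15529 probes in all.

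Glycolysis takes glucose through a chain of cytosolic enzymes to pyruvate and yields ATP and NADH, and lactate dehydrogenase then turns pyruvate into lactate and regenerates NAD+. Hexokinase, phosphofructokinase and pyruvate kinase catalyse its irreversible steps. Burkitt lymphoma cells carry an activated MYC gene, and MYC is known to raise the transcription of many glycolysis genes. Argonaute 2 (Ago2) is the protein that holds a mature microRNA and, through it, binds the mRNAs that pair with the microRNA seed, so RNA recovered with an Ago2 antibody is richer in microRNA targets than total RNA.

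The cells were ST486, a Burkitt lymphoma line, transduced with the retroviral vector MXW-PGK-IRES-GFP, either empty (EV-ST486) or with the miR-155 insert (miR-155-ST486), and both were sorted for GFP. Total RNA (T) and RNA from the Ago2 immunoprecipitate (IP) were taken from each, which gave 4 RNA samples, 1 per condition. Each RNA was labelled once with Cy3 and once with Cy5, and the IP RNA was hybridised together with the total RNA of its own cells in both dye orientations, which gave 4 arrays and 8 channels. The 2 labellings are technical repeats, so no value below has a replicate of cells behind it and no test was possible. The error, where one is given, is the pair of dye orientations, first the array with total RNA in Cy3 and then the array with total RNA in Cy5. For some values the pair is left out.

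The insert expresses the microRNA whose mature form is shown here because it is the only designed difference between the vectors. The seed, bases 2 to 8, is in capitals.
hsa-miR-155-5p: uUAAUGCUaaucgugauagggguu
RefSeq places these 24 bases on the plus strand at chr21:25573983-25574006 of GRCh38.p14.

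The arrays detected between 14094 and 22161 probes per channel, and 0 spots were saturated. Of 8 B cell markers on the array 7 were detected in at least 4 channels (MS4A1, CD79A, CD79B, CD22, BLK, POU2AF1 and MME), while PAX5 was not. Of markers of other cells, CD8A of 5 T cell genes, CD14 of 5 myeloid genes, HBA1 of 3 erythroid genes, KRT8 and KRT18 of 4 epithelial genes and 0 of 3 fibroblast genes were detected. The probe for MIR155HG, the host transcript of miR-155, was detected in 3 of 8 channels, all of miR-155-ST486, with total signals of 121 and 107 against 11.4 and 19.2 in EV-ST486. Whether the insert covers that probe is not known here. EV and miR-155 arrays lay on separate slides, so slide and vector cannot be told apart in any comparison between vectors.

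The first question was how much of each glycolysis mRNA was in the Ago2-bound fraction. Signals were quantile normalised, and the IP/T ratio is the IP signal over the total signal of the same probe, so that 1 means an equal normalised signal in both fractions. In both vectors most glycolysis mRNAs had less signal in the IP than in the total fraction, while PFKP stood far above 1. Averaged over the probes of a gene, GPI, ALDOA, TPI1, GAPDH, PGK1, ENO1, PKM and LDHA lay below 1 in both vectors and both dye orientations, 8 of 10 genes against 38.3% of the 8315 genes with a kept probe. HK2 and PFKP lay above 1 on all 4 arrays, 2 of 10 genes against 28.4%, although with normexp background subtraction and loess and Aquantile normalisation HK2 came to 0.975 in EV-ST486. Over the 10 genes the IP/T ratio had a median of 0.703 with EV and 0.777 with miR-155, where all genes had 0.925 and 0.907. The members' median in EV-ST486 was 0.601 on the array with total RNA in Cy3 and 0.848 on the array with total RNA in Cy5. All genes had 0.920 and 0.942 there. The members' distance from other genes thus differed between the orientations, each of which was 1 array per vector.

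**Figure D1:**
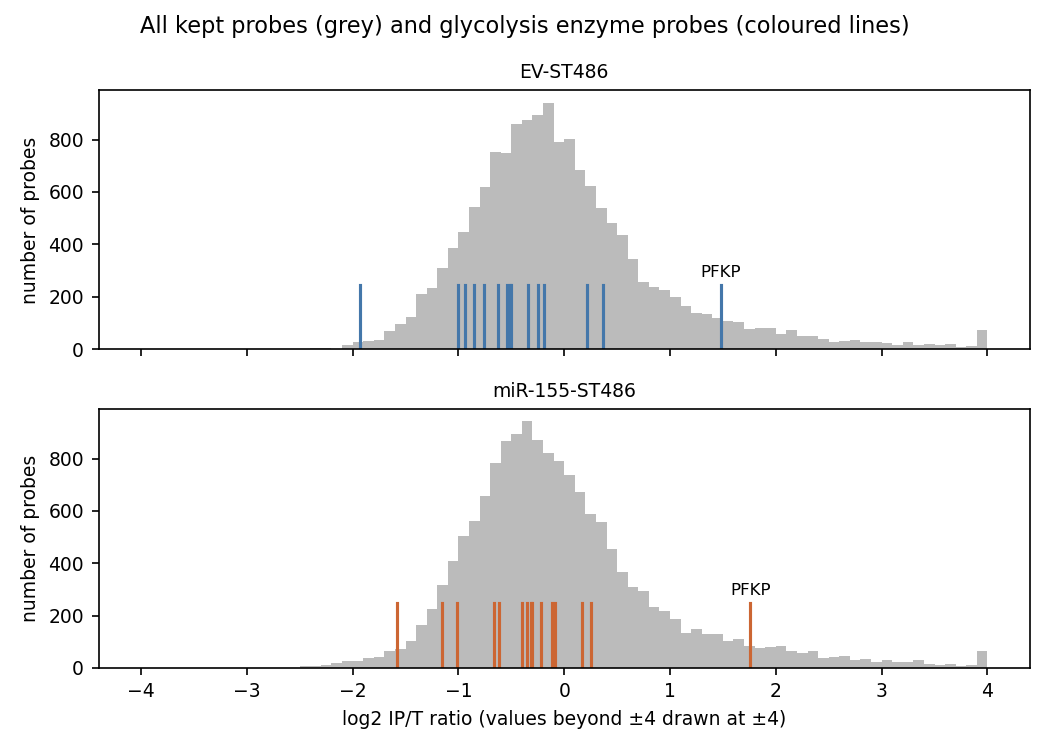
Number of kept probes (y axis) by log2 IP/T ratio (x axis, mean of both dye orientations) in EV-ST486 (top) and miR-155-ST486 (bottom), with a coloured line for each of the 15 glycolysis enzyme probes. Most lines lie below 0 in both panels, and the PFKP line stands apart on the right at 1.48 and 1.76.

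At the level of probes, 1 of 15 reached an IP/T of 2 with EV (12.1% of all kept probes) and 1 of 15 with miR-155 (12.2%), the PFKP probe in both. Ratios lower by at least 2-fold were found for 2 of 15 probes in EV-ST486 (ALDOA and 1 PGK1 probe; background 10%) and for 3 of 15 in miR-155-ST486 (ALDOA, TPI1 and the same PGK1 probe; background 9.83%). Counts of 1 to 3 lie near those shares of 15 probes. ALDOA in EV-ST486, at 0.4995, and TPI1 in miR-155-ST486, at 0.495, lay on the threshold itself.

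**Figure D2:**
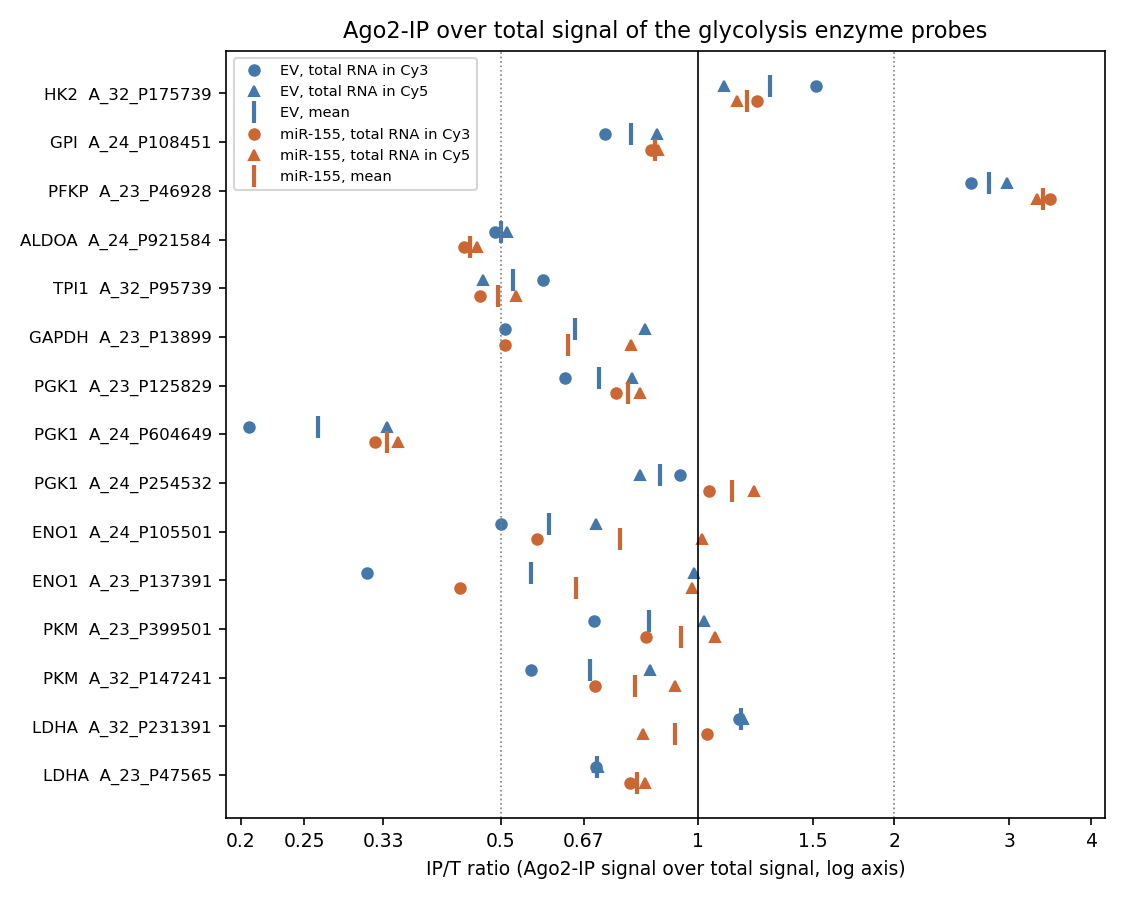
IP/T ratio (x axis, log scale) of the 15 kept probes, with circles for arrays with total RNA in Cy3, triangles for arrays with total RNA in Cy5 and a bar for their mean, in EV-ST486 (blue) and miR-155-ST486 (orange). PFKP is the only probe beyond 2 on all 4 arrays, and the circle and triangle lie far apart for GAPDH and ENO1.

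HK2, the hexokinase that traps glucose as glucose 6-phosphate and is bound to mitochondria in many tumour cells, had total signals of 1536 in Cy3 and 1846 in Cy5 in EV-ST486, and 3129.6 and 3493 in miR-155-ST486. Its IP signals were 2029 and 2331 in EV-ST486, and 4015 and 3852 in miR-155-ST486. All 4 miR-155 channels were above all 4 EV channels. The IP/T ratio was 1.29 in EV-ST486 (1.52 and 1.1), against 1.19 in miR-155-ST486 (1.23 and 1.15). A second HK2 probe, A_23_P398460, was detected in 3 of 8 channels and was left out.

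GPI, which converts glucose 6-phosphate to fructose 6-phosphate, was below 1, with 0.790 in EV-ST486 (0.722 and 0.865), against 0.859 in miR-155-ST486 (0.850 and 0.869). The values of the vectors overlapped.

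PFKP, the platelet-type subunit of phosphofructokinase, the enzyme of the committed step, was the only member with clearly more signal in the IP fraction. Its total signals were 6331 in Cy3 and 6230.2 in Cy5 in EV-ST486, and 8320.4 and 8474 in miR-155-ST486. Its IP signals were 18553 and 16576 in EV-ST486, and 28009.8 and 28826 in miR-155-ST486. Each IP channel was thus above each total channel. The IP/T ratio was 2.79 in EV-ST486 (2.62 and 2.98), against 3.38 in miR-155-ST486 (3.46 and 3.31). In all 13 processing settings tried it stayed at or above 2, from 2.28 to 3.46 in EV-ST486 and from 2.82 to 3.46 in miR-155-ST486. Of all kept probes 8.2% reached 2 in both vectors and both orientations, so a ratio of this size was not rare on these arrays.

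ALDOA, the aldolase that splits fructose 1,6-bisphosphate, had the lowest mean ratio of the 10 genes as processed here. Its total signals were 14369 and 15190.2 in EV-ST486, and 11626 and 9099 in miR-155-ST486, and its IP signals were 7745 and 7031, and 4182 and 5094. Every IP channel was below every total channel. The IP/T ratio was 0.4995 in EV-ST486 (0.489 and 0.510), against 0.449 in miR-155-ST486 (0.438 and 0.460). In EV-ST486 it was 0.671 with normexp and quantile and 0.906 with normexp, loess and Aquantile. TPI1, which interconverts the triose phosphates made by aldolase, was close to it with 0.522 in EV-ST486 (0.581 and 0.469), against 0.495 in miR-155-ST486 (0.464 and 0.527). For TPI1 the values of the vectors overlapped.

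GAPDH, which oxidises glyceraldehyde 3-phosphate and makes NADH, had the brightest probe of the set and 10 spots per array. Its total signals were 63596 and 53867 in EV-ST486, and 77752 and 61142 in miR-155-ST486, while its IP signals were 44801 and 32308, and 48271 and 39473. Its IP/T ratio was 0.650 in EV-ST486 (0.508 and 0.832), against 0.633 in miR-155-ST486 (0.508 and 0.789). The vectors gave almost the same pair of values, and the dye orientations differed. The 10 spots of an array agreed far better than the orientations did. Before quantile normalisation the log2 IP/T of the GAPDH spots in EV-ST486 was -0.95 ± 0.097 (SD of 10 spots) with total RNA in Cy3 and -0.23 ± 0.088 with total RNA in Cy5. RefSeq lists 65 pseudogenes of GAPDH by symbol, 6 of LDHA, 5 of PKM and 4 each of TPI1 and ENO1, and whether transcripts of these reach the probes was not tested.

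**Figure D3:**
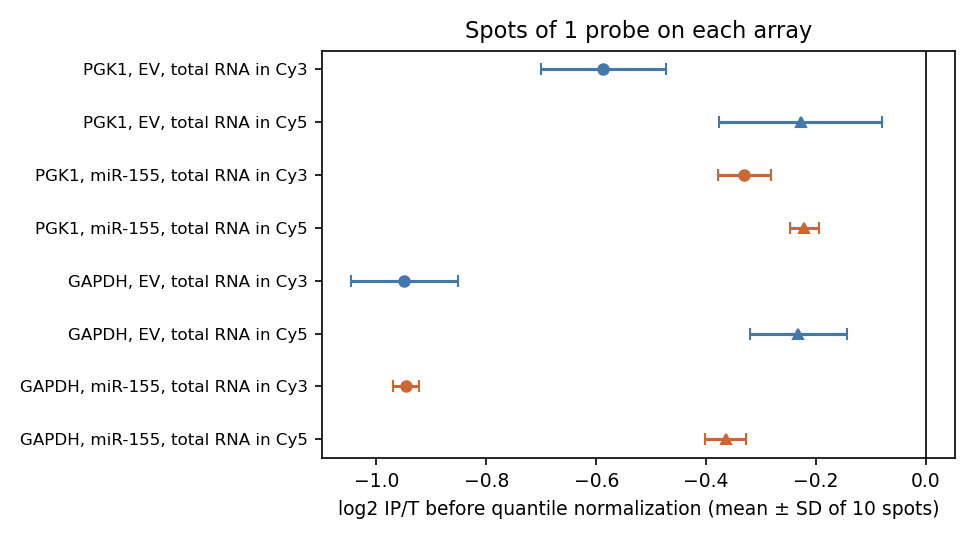
Log2 IP/T before quantile normalisation (x axis, mean ± SD of 10 spots) of the GAPDH probe and of the PGK1 probe with 10 spots on each of the 4 arrays. For GAPDH the circles (total RNA in Cy3) lie near -0.95 and the triangles (total RNA in Cy5) at -0.23 and -0.36, farther apart than the spots of an array.

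PGK1, which makes ATP from 1,3-bisphosphoglycerate, had 3 kept probes that did not agree. The probe with 10 spots, A_23_P125829, was at 0.706 in EV-ST486 (0.627 and 0.795), against 0.782 in miR-155-ST486 (0.750 and 0.816). The probe A_24_P604649 had the lowest ratio of the whole set, 0.262 in EV-ST486 (0.206 and 0.335), against 0.334 in miR-155-ST486 (0.321 and 0.348). Its total signals were 3085 and 2145 in EV-ST486 and its IP signals 718 and 635. The dim probe A_24_P254532, with signals from 154.9 to 311 and detected in 7 of 8 channels, lay near 1 with 0.876 in EV-ST486, against 1.13 in miR-155-ST486. The mean of the 3 probes was 0.545 in EV-ST486, against 0.665 in miR-155-ST486, and the probes lay on both sides of it. With normexp, loess and Aquantile it was 0.928 in EV-ST486.

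ENO1, the enolase that makes phosphoenolpyruvate, was at an IP/T of 0.573 in EV-ST486 (0.395 and 0.831), against 0.703 in miR-155-ST486 (0.496 and 0.997), the widest gap between orientations among the 10 genes. Both of its probes showed the gap. PKM, pyruvate kinase, which makes pyruvate and ATP, had 0.760 in EV-ST486 (0.622 and 0.929), against 0.869 in miR-155-ST486 (0.762 and 0.991), and its 2 probes lay within 0.685 to 0.842 and 0.802 to 0.942. For ENO1 and PKM the ratio was thus nearer to 1 with total RNA in Cy5 than with total RNA in Cy3.

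LDHA, the subunit that favours the making of lactate, was at 0.904 in EV-ST486 (0.899 and 0.909), against 0.865 in miR-155-ST486 (0.903 and 0.828). Its probes differed. A_32_P231391 gave 1.16 in EV-ST486, against 0.924 in miR-155-ST486, and A_23_P47565 gave 0.701 and 0.809. One more probe, A_32_P44568, was detected in all 8 channels but was left out because its EV total signal was 4727 in Cy3 and 2152 in Cy5. It gave 0.355 in EV-ST486, against 0.356 in miR-155-ST486.

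The second question was whether the signal of these genes differed between the vectors. In the total fraction HK2, GPI, PFKP, GAPDH, PGK1, ENO1, PKM and LDHA were higher in miR-155-ST486 in both dye orientations, and the same 8 genes were higher in the IP fraction in both. This held for 8 of 10 members and for 25.8% of all genes. Only ALDOA of the 10 was lower in both fractions and both orientations, as were 18.6% of all genes. Relative to the median of all kept probes, the total ratio with normexp, loess and Aquantile was 1.07 for ALDOA and 0.986 for GAPDH. With normexp and quantile ALDOA was at 0.965 on that scale. The part of the background correction, of the normalisation and of this scaling in these values was not tested. The median ratio of miR-155-ST486 to EV-ST486 over the 10 genes was 1.40 in the total fraction and 1.54 in the IP fraction, against 1.03 and 1.02 for all genes. Signals are relative within a channel, so more RNA of a gene in each cell cannot be told apart from more cells that carry it or from less of other RNAs.

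HK2 had a ratio of 1.96 in the total fraction (2.04 and 1.89) and 1.81 in the IP fraction (1.65 and 1.98). Its total ratio, relative to the median of all kept probes, was 1.26 with normexp and quantile and 1.21 with normexp, loess and Aquantile, below LDHA, PFKP and GPI in both settings. LDHA had 1.54 in the total fraction (1.48 and 1.61) and 1.48 in the IP fraction. PKM had 1.5 (1.56 and 1.45) and 1.72, PGK1 had 1.49 (1.5 and 1.47) and 1.81, and GPI had 1.47 (1.51 and 1.43) and 1.60. Relative to the median of all kept probes, PGK1 was at 1.12 in the IP fraction with normexp, loess and Aquantile. PFKP had 1.34 in the total fraction (1.31 and 1.36) and 1.62 in the IP fraction (1.74 and 1.51). For these 6 genes the ratio was above 1.3 in each fraction and each orientation. ENO1, at 1.20 (1.34 and 1.07) and 1.47, and GAPDH, at 1.18 (1.22 and 1.14) and 1.15, were nearer to 1. TPI1 was on either side of 1 in the total fraction, 0.989 (1.13 and 0.864), and at 0.937 in the IP fraction. ALDOA was at 0.696 (0.809 and 0.599) in the total fraction and 0.625 (0.725 and 0.540) in the IP fraction.

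**Figure D4:**
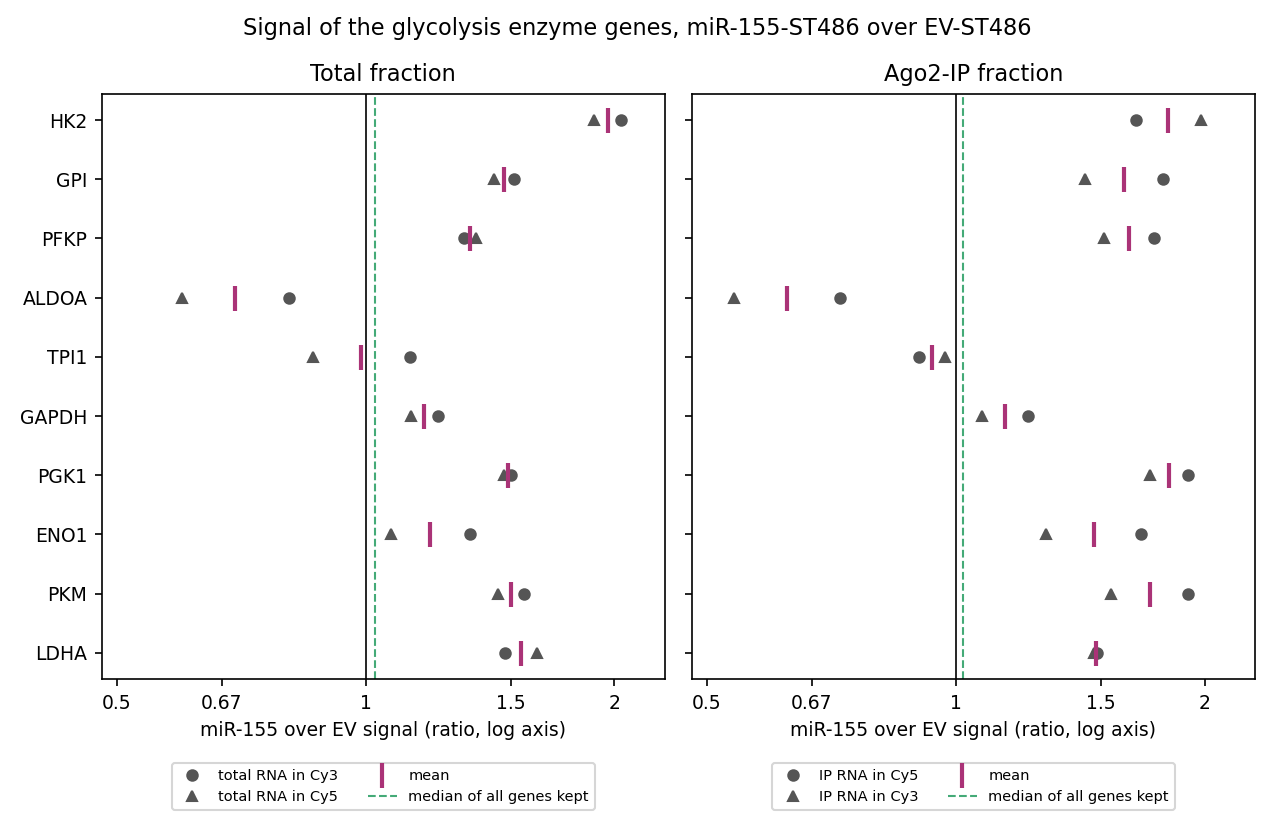
Signal in miR-155-ST486 over EV-ST486 (x axis, log scale) of the 10 genes in the total fraction (left) and the Ago2-IP fraction (right), with a circle and a triangle for the dye orientations, a bar for their mean and a dashed line for the median of all genes. HK2 reaches 1.96 in the total fraction, ALDOA lies to the left of 1 in both panels, and the other genes except TPI1 lie to the right in both. Relative to the median of all kept probes, total signal with normexp, loess and Aquantile gave 1.07 for ALDOA and 0.986 for GAPDH.

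By probe, 5 of 15 members were higher by at least 1.5-fold in the total fraction of miR-155-ST486 (background 5.37%) and 10 of 15 in the IP fraction (background 6.42%). In the IP fraction 1 of 15, the ALDOA probe, was lower by at least 1.5-fold (background 6.16%). Of the 1553 brightest kept probes 8 were members, with a median log2 ratio of 0.49 in the total fraction and 0.57 in the IP fraction, where all of these probes had 0.01 and -0.05. The slide and the single culture behind each vector move with this difference, and their part in it was not tested.

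The third question was whether miR-155 shifted these mRNAs towards Ago2, which is read by dividing the ratio with miR-155 by the ratio with EV. The ratio was at least 2 for 0 of 15 probes (background 1.15%) and lower by at least 2-fold for 0 of 15 (background 0.477%), and no member passed 1.5 in either direction (backgrounds 4.37% and 4.38%), though with normexp, loess and Aquantile ALDOA came to 0.595. Over the 10 genes the median was 1.03, with 0.987 for all genes. The genes ranged from 0.898 for ALDOA (0.895 and 0.901) to 1.23 for ENO1 (1.26 and 1.20), with PGK1 at 1.22 (1.27 and 1.17) and PFKP at 1.21 (1.32 and 1.11). GPI, PFKP, PGK1, ENO1 and PKM were above 1 in both orientations, 5 of 10 genes against 27.3% of all genes, and ALDOA and GAPDH below 1 in both, 2 of 10 against 32%. Of these 7 genes only GPI and ALDOA kept their side of 1 in every processing setting in which they had a value. The others crossed it with a normexp setting, where PGK1 reached 0.827, PKM 0.904, PFKP 0.948, ENO1 0.974 and GAPDH 1.24.

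Between isoenzymes of hexokinase, aldolase, enolase and lactate dehydrogenase the ranges of IP/T over the 4 arrays overlapped. Those of phosphofructokinase did not. Of 17 genes for other isoenzymes or for the phosphoglycerate mutase step, 8 had a kept probe. The 3 phosphofructokinase subunits lay far apart. PFKL, the liver type, was at 0.465 in EV-ST486 (0.409 and 0.528), against 0.438 in miR-155-ST486 (0.347 and 0.555). PFKM, the muscle type, was at 1.45 (1.5 and 1.40) and 1.58 (1.72 and 1.45), below PFKP in each array. The ranges of the 3 genes over the 4 arrays did not overlap. Only 1 kept probe stood for each gene, and kept probes of 1 gene also differed. Those of PGK1 gave 0.706, 0.262 and 0.876 in EV-ST486. The part of the probe in the gaps between the subunits was not tested.

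**Figure D5:**
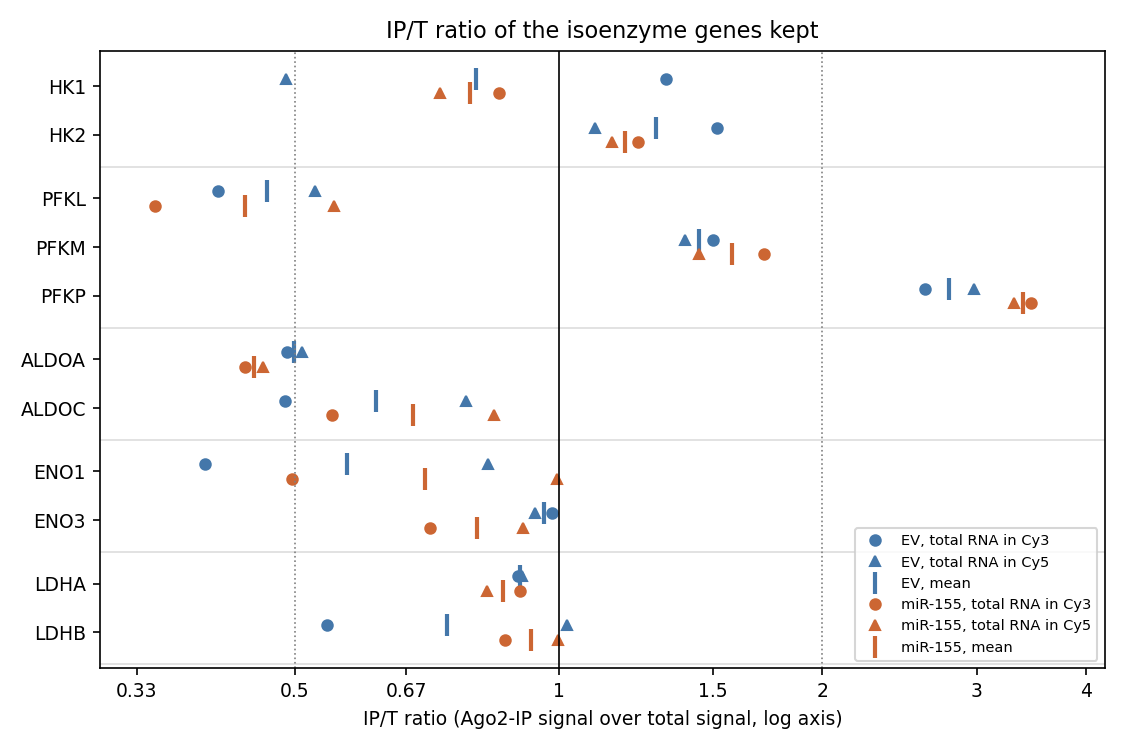
IP/T ratio (x axis, log scale) of genes that encode isoenzymes, with circles for arrays with total RNA in Cy3, triangles for total RNA in Cy5 and bars for the mean, in EV-ST486 (blue) and miR-155-ST486 (orange). PFKL, PFKM and PFKP occupy separate ranges, with PFKL below 0.6 and PFKP above 2.6 throughout, while HK1 in EV-ST486 spans 1 between the dyes.

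HK1, the hexokinase of most tissues, had 0.805 in EV-ST486, but its orientations were 1.33 and 0.488. ALDOC, at 0.618 (0.487 and 0.784) and 0.682 (0.551 and 0.844), was below 1 like ALDOA. ENO3 was at 0.962 and 0.806, and LDHB, the subunit that favours the use of lactate, at 0.746 (0.544 and 1.02) and 0.931. PGAM1, phosphoglycerate mutase, the step between PGK1 and ENO1 that the set lacks, was at 0.918 and 0.991, and BPGM, which makes 2,3-bisphosphoglycerate, at 0.781 and 0.845. Of these 8 genes 5 were below 1 on all 4 arrays (38.3% of all genes) and 1, PFKM, above 1 on all 4 (28.4%).

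Around the pathway, genes of 5 other lists were measured. Of 21 genes for transport and regulation 12 had a kept probe, with a median IP/T ratio of 0.949 in EV-ST486, against 0.995 in miR-155-ST486. BSG, the chaperone of the lactate transporters, was lower by at least 2-fold in both vectors, 0.445 and 0.486. PFKFB3, which makes the activator of phosphofructokinase, had an IP/T ratio 1.75-fold higher in miR-155-ST486 (1.51 and 2.03). Its 2 kept probes gave 2.70 and 1.14, and the first was detected in only 4 channels. PFKFB2, a relative of PFKFB3, had 0.610 (0.662 and 0.563), from 1 kept probe detected in 5 channels. The IP/T ratio of that probe was 1.79 and 0.810 in EV-ST486, and 1.18 and 0.456 in miR-155-ST486. The 5 pyruvate dehydrogenase genes had medians of 1.13 and 1.16. In the pentose phosphate pathway 6 of 7 genes were kept, with medians of 0.765 and 0.720, and in gluconeogenesis and glycogen metabolism 6 of 14, with medians of 0.813 and 0.936. The citrate cycle, with 15 of 17 genes kept, had the lowest medians, 0.593 and 0.621, and 12 of its 15 genes were below 1 on all 4 arrays, against 38.3% of all genes. IDH2 (0.377 and 0.402), IDH3B (0.297 and 0.382) and DLST (0.468 and 0.408) encode mitochondrial dehydrogenases or subunits of them. These 3 genes were lower by at least 2-fold in both vectors, though the orientations of DLST in EV-ST486 were 0.692 and 0.316. In total signal the ratio of miR-155-ST486 to EV-ST486 had a median of 1.19 for the isoenzyme and mutase genes, 1.13 for transport and regulation, 1.27 for pyruvate dehydrogenase, 1.13 for pentose phosphate, 1.07 for gluconeogenesis and glycogen and 1.15 for the citrate cycle, beside 1.40 for the members.

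Genes outside the lists with the pattern most like the mean of the members were sought by the Euclidean distance over the 4 log2 IP/T values, among 6912 genes detected in all 8 channels. The nearest were PDCD7, ARHGAP4, METTL17, CHID1 and PANK2, at distances of 0.056 to 0.093. The members were themselves farther from their mean, from 0.14 for GPI to 3.83 for PFKP.

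The promoters of the 10 members were searched for CACGTG, the E-box that MYC and related proteins bind. The search covered both strands in the windows around the gene starts that RefSeq gives. It was in the promoters of HK2, ALDOA, GAPDH and LDHA, 4 of 10 members, and in those of 8.77% of 27305 genes. The shorter ACGTG, the core of the hypoxia response element, is contained in CACGTG and was in 8 of 10 members and 24.9% of genes. The match nearest the start is shown for each of the 4 genes as 30 bases of GRCh38.p14 on the plus strand, with the E-box in capitals.
HK2, chr2:74835009-74835038: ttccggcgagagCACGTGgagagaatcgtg
ALDOA, chr16:30064373-30064402: tggcagggaggcCACGTGatccgagtcccc
GAPDH, chr12:6535171-6535200: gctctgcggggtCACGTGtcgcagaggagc
LDHA, chr11:18394464-18394493: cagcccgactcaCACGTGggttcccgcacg
The 4 genes with the motif include HK2, at 1.96 between vectors in total signal, and ALDOA, at 0.696. Relative to the median of all kept probes, HK2 and ALDOA were at 1.26 and 0.965 with normexp and quantile. With normexp, loess and Aquantile they were at 1.21 and 1.07. A match describes the letters only, and no binding was measured here.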

How the data were processed

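Total and Ago2-IP RNA of 4 RNA samples (1 per condition, each labelled with Cy3 and Cy5) were hybridised by the authors to 4 two-colour Agilent arrays. The deposited files hold the intensity of each spot as Agilent Feature Extraction 10.5.1.1 wrote it, already background-subtracted and dye-normalised, with coordinates of the hg18 build that were not used here. The deposited value table holds the authors' log2 values after quantile normalisation. Each array was deposited under both of its channels and was read once.

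Following the study's methods, non-control spots of a probe were averaged, values below 1 were set to 1, log2 was taken, and the 8 channels were quantile normalised. A probe counted as detected in a channel where any of its spots carried both of Agilent's detection flags. It was kept if 4 or more channels detected it (19469 probes) and its labellings differed by no more than 2-fold for every RNA (15529 probes). Of 14453 deposited probes, 14446 were kept here, and 99.9% of values lay within 0.05 log2. Labellings, and then probes of a gene, were averaged on the log2 scale. Probes were named through RefSeq (23958 probes). The numbers of arrays and of RNA samples limit the precision, and slide holds 1 vector each.

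Alternatives used Python 3.11.15, pandas 2.3.3 and numpy 2.4.6, and limma 3.58.1 in R 4.3.3 for normexp (offset 50) with quantile or with loess and Aquantile normalisation. The functions were tested on simulated data. The members, gene lists and thresholds were chosen with earlier results of these data known. The text names every member, kept isoenzyme and mutase genes, and genes of the other lists with IP/T of at least 2 or at most 0.5 in both vectors, or a vector ratio past 1.5 in both orientations. Of the cell type markers listed, 1 is not reported here and 2 were not matched to a probe.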

Additional observations from a re-analysis of the deposited data

Results flagged for a closer look

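The dim PGK1 probe A_24_P254532 was picked out because its IP/T ratio lay on opposite sides of 1 in the vectors in both dye orientations, with log2 values of -0.09 and -0.30 in EV-ST486 and 0.06 and 0.29 in miR-155-ST486. The EV-ST486 IP signal in Cy5, from which the first of these values comes, was not well above background. The ratio between the vectors was 1.29. The difference was not tested, since each condition has 1 RNA sample, and 502 of the 15529 kept probes (3.23%) showed the same kind of change of side. The other PGK1 probes stayed below 1 in both vectors. PGK1 had 3 kept probes, and the ratio between vectors was 1.11 and 1.27 for the other two.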

How the results depend on the processing

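Values are medians of log2 ratios over the member genes, or counts of member probes. As reported, the IP/T median was -0.51 with EV and -0.36 with miR-155, their difference 0.04, and the vector difference, taken relative to the median of all kept probes, 0.47 in total and 0.62 in IP signal. Of the alternatives 106 of 133 such values stayed within the spread between dye orientations or within 1.5 times the count. Some of these settings could move the members little. Without the filter on detection the same 15 probes were kept, and the IP/T medians stayed at -0.51 and -0.36. Of the medians only the difference between vectors changed sign, to -0.089 as given below and to -0.04 without PFKP. Without quantile normalisation 1 probe was lower by at least 2-fold in EV-ST486. With normexp and quantile the vector medians were 0.33 (total) and 0.38 (IP), with 1 and 0 such probes in EV-ST486 and miR-155-ST486. With normexp, loess and Aquantile the IP/T median in EV-ST486 was -0.13, the difference -0.089, the IP vector median 0.30, and 0 probes were lower in EV-ST486. In 2 settings chosen after seeing the data, high local backgrounds (above 500) were replaced first. With quantile they gave an IP/T median of -0.15 in miR-155-ST486, a difference of 0.16 and 1 and 1 probes. With loess they gave IP/T medians of -0.19 and -0.11 and 1 and 0 probes. Without the dye filter the miR-155-ST486 median was -0.55. It was -0.51 without PFKP and -0.21 without the PGK1 probe of lowest IP/T, both also chosen after seeing the data. With arrays of 1 orientation only, the IP/T median ran from -0.74 to -0.24 in EV-ST486 and from -0.53 to -0.24 in miR-155-ST486. At a threshold of 1.5 the lower counts were 6 and 5 of 15 probes, against 25.9% and 26.8% of all kept probes. With the 2-fold threshold met in each orientation the lower count was 1 in EV-ST486 (background 5.07%). Single genes also crossed 1 in some settings. With normexp, loess and Aquantile the total vector ratio became 1.07 for ALDOA and 0.986 for GAPDH, and the EV-ST486 IP/T ratio 0.975 for HK2, while LDHA rested on the probe chosen (1.16 with its brightest). ENO1 had a kept probe, and so a value, in 10 of the settings. The count of genes higher in both fractions was 7 of 10 with normexp, loess and Aquantile. It was 8 in every other setting, where 8 to 10 genes had a value, but not always the same 8. TPI1 was among them with normexp and quantile (1.06 in total and 1.15 in IP signal), where ENO1 had no value. It was also among them in the 2 settings with high local backgrounds replaced. Gene ratios of at least 1.5 between vectors were counted relative to the median of all kept probes. As processed here they numbered 2 in total and 5 in IP signal. PKM, at 1.48 in total signal on that scale, was not among the 2. The counts were 0 and 2 with normexp and quantile, and 1 and 2 with normexp, loess and Aquantile. The cause of these shifts was not tested. No paired analysis was possible because each condition has 1 RNA sample and the replicate numbers are dyes of the same RNA. The dimmest kept member probe, A_24_P254532 of PGK1, was detected in 7 of 8 channels, which limits what it can show.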
